A study of Sus scrofa with 20 samples.

Results

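NMI (N-myc and STAT interactor) and 45 further genes known to be induced by interferon were followed over the adrenal glands of 20 pigs. The genes were taken from a list of 46 symbols, and 43 of them were found among the 13588 genes named by the array's annotation, NMI and 42 others. IFI44L, IRF7 and HERC5 had no probe set under these symbols. Each gene was represented by its probe set with the highest mean over all 20 arrays, and both probe sets of NMI were examined. NMI was selected on its difference between HR and LR in these same arrays, so that this difference is described here without a test.

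All animals were German Landrace pigs, labelled as adult, of which 10 were high-reactive (HR) and 10 low-reactive (LR). The groups were formed from the extremes of struggling behavior in the backtest of piglets and from haplotypes at a coping behavior QTL on chromosome 12, so that HR and LR differ in behavior and in this haplotype at once. No animal of either group received a treatment named in the labels. RNA of each whole adrenal gland sample was hybridized to 1 Affymetrix Porcine Snowball array, and all values are log2 signals after RMA normalization.

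Type I interferons bind a receptor on the cell surface, and Janus kinases then phosphorylate STAT2, which joins IRF9 in a complex that switches on interferon-stimulated genes. Their products recognize viral RNA, block its translation or degrade it, tag proteins with the ubiquitin-like ISG15, and present viral peptides on class I molecules. NMI is itself induced by interferon in human cells, where it binds STAT proteins and forms a complex with IFI35. These roles are known mainly from human and mouse cells.

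The array medians lay between 4.74 and 4.81, around a median of 4.78 over 47722 probe sets, and the precision is limited by the number of animals. The labelled tissue was checked by 8 markers of the adrenal cortex, whose means lay between 11.43 and 13.56. A single array stood apart: HR2835 correlated with the other arrays at a mean of 0.938, whereas the 19 others lay between 0.977 and 0.983. It also had the lowest score of the cortex markers, the mean of their standardized values, at -2.34. The next lowest animal, LR2789, lay at -0.52. Many results that rest on HR2835 are given with and without it. In tissue RNA, fewer cells of a type and less RNA per cell cannot be told apart.

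The brighter probe set of NMI, SNOWBALL_025365_s_st, ranged in HR from 3.79 to 6.10 with a median of 5.10. In LR it ranged from 3.24 to 5.58 with a median of 3.56. The groups overlapped, although 7 HR animals and only 1 LR animal, LR2789, exceeded 4.6. HR had a mean of 5.02 ± 0.82 (SD, n = 10) and LR of 3.80 ± 0.69 (SD, n = 10), which is a log2 difference of 1.22 with a standard error of 0.31, or 2.32-fold. Without HR2835, the animal with the highest value, the difference was 1.10.

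The dimmer probe set of NMI, SNOWBALL_031847_st, did not share this pattern. It ranged from 1.37 to 1.84 in HR and from 1.48 to 2.09 in LR, far below the median probe set. Its difference was -0.18 with a standard error of 0.09, opposite in sign, and over animals within the groups it correlated with the brighter probe set at r = -0.26. Averaging both probe sets left a difference of 0.52. The brighter probe set also had a mean, 4.41, below that of the median probe set, and its name marks it as one whose probes can match several transcripts.

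**Figure D1:**
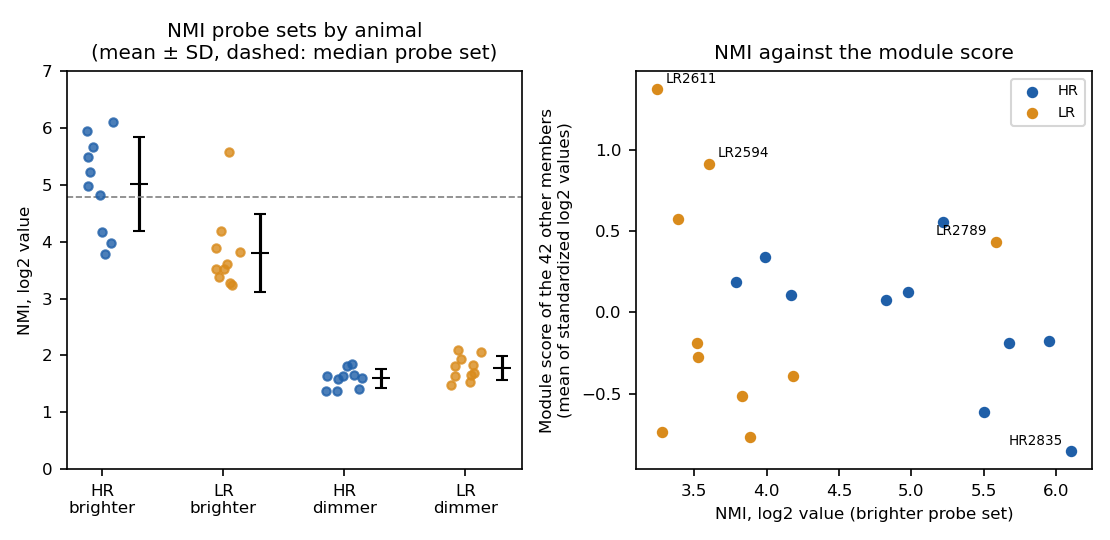
Left, log2 values of both probe sets of NMI by animal in HR and LR, with mean and SD of 10 animals as bars and the median probe set as a dashed line. Right, the brighter probe set of NMI against the module score of the 42 other members, the mean of their standardized log2 values. In the brighter probe set 7 HR and 1 LR animal lie above 4.6, and LR2611 combines the highest module score with the lowest NMI value.

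IFI35, the binding partner of NMI, lay in HR between 6.66 and 7.28 with a median of 7.04. In LR it lay between 6.49 and 7.09 with a median of 6.79. The groups overlapped over most of their range, with the lowest HR value in HR2835. The log2 difference was 0.22 with a standard error of 0.09 and an unadjusted p of 0.0208, which did not pass adjustment over all probe sets (limma, adjusted p = 1.0). A second probe set of IFI35 differed by 0.12 (unadjusted p = 0.400).

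To see whether the genes move together, Pearson's r was taken over animals for each pair after subtraction of each gene's group means. The median r of the 861 pairs among the 42 members other than NMI was 0.38, and 83.3% of the pairs were above 0. Over all pairs of named genes the median was 0.03, with 52.6% above 0. Leaving out HR2835 gave 0.40 (87.5% above 0) for the members and 0.00 for all pairs. The first principal component of the 42 members held 42.3% of their variance, and 45.8% without HR2835. These values are descriptions, since the pairs share the same animals and the genes were chosen as a known module.

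The median pair of members was positively correlated in both groups. Of the member pairs 87.9% were above 0 in LR and 68.8% in HR, against 50.1% and 53.1% of all pairs of named genes. Within LR the median pair r was 0.49, and it was 0.39 without LR2611, the animal with the highest module score. Within HR it was 0.27, and 0.28 without HR2835. The difference between the groups in co-expression was not tested.

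**Figure D2:**
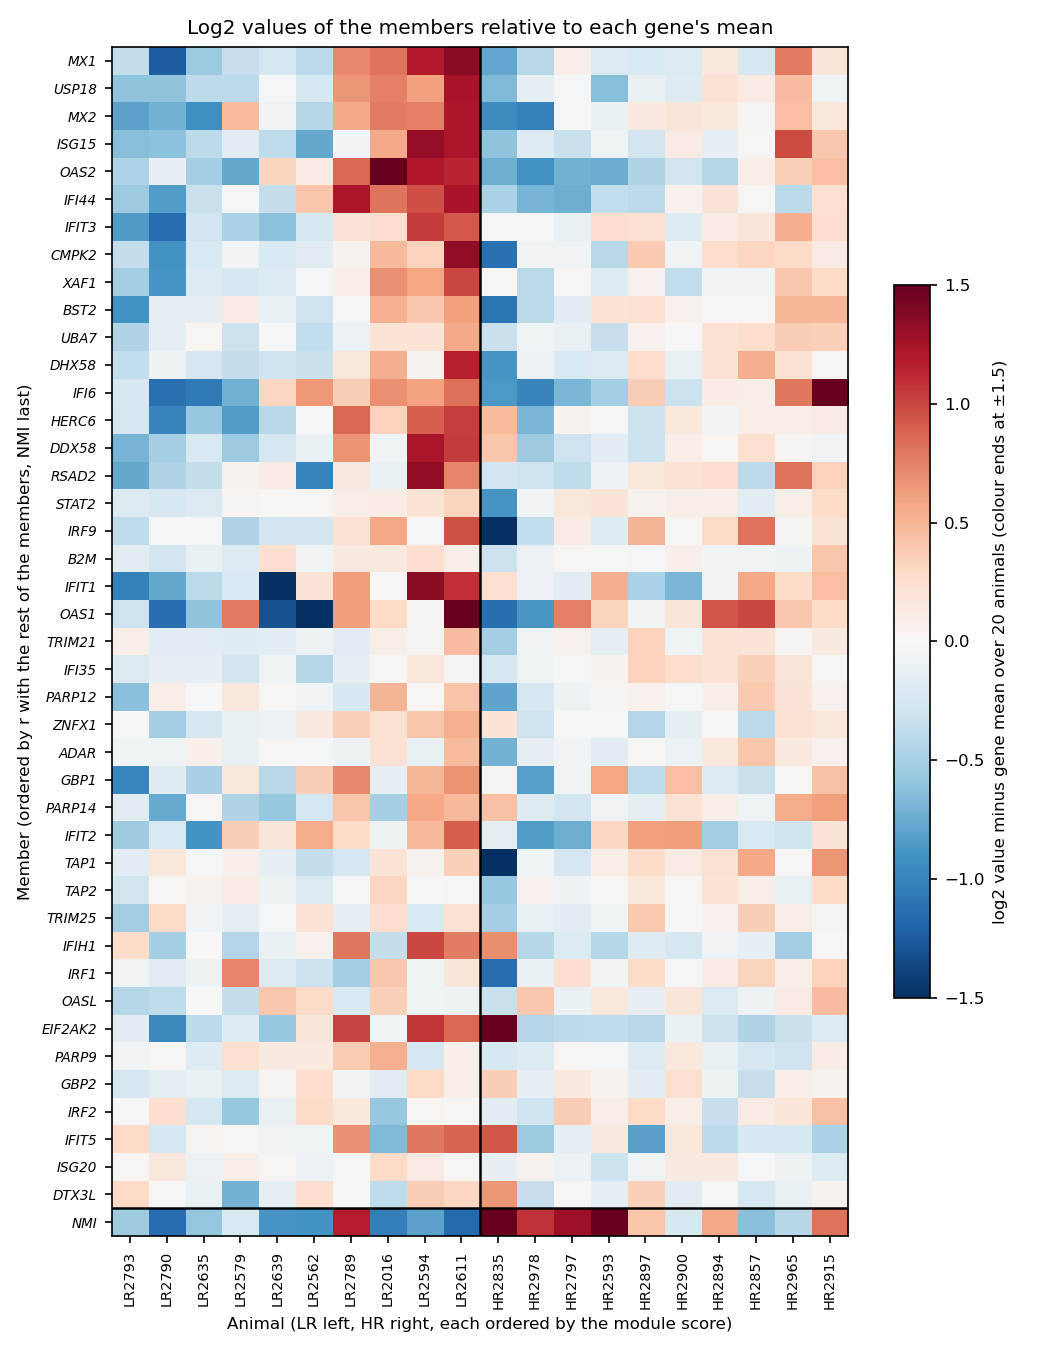
Log2 values of the 42 members and NMI (rows) in 20 animals (columns), each relative to the gene's mean over all animals, with colours ending at 1.5. LR is on the left and HR on the right, each ordered by the module score, and rows are ordered by their correlation with the rest of the members. Red columns at the right end of LR (LR2611, LR2594) run through most rows, and the NMI row at the bottom does not follow them.

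Each member was then set against the mean of the standardized values of the remaining ones, again with group means subtracted. All 42 correlations were positive, from 0.04 to 0.90 with a median of 0.64. The correlation was above 0.5 for 29 members, above 0.8 for 10 and below 0.2 for 7. Without HR2835 5 members were below 0.2 (ISG20, IRF2, PARP9, OASL and IRF1), so that part of the low values depended on this animal. In HR alone, HR2835 included, the correlation was negative for EIF2AK2 (-0.55), IFIT5 (-0.48), IFIH1 (-0.37), GBP2 (-0.30), DTX3L (-0.30) and ISG20 (-0.08). In LR alone only IRF2 was negative (-0.07).

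MX1, a dynamin-like GTPase that traps viral nucleocapsids, followed the rest most closely at r = 0.90. In HR it ranged from 7.07 to 8.62 with a median of 7.63. LR values ran from 6.60 to 9.20 with a median of 7.54. Both the lowest and the highest animal were LR, and the spread of 2.60 between them corresponded to 6.05-fold. MX2, its neighbour in the genome and a restriction factor of retroviruses in human cells, reached r = 0.89 with the rest and 0.84 with MX1. GBP1 and GBP2, guanylate-binding proteins that attack the vacuoles of pathogens, lay at 0.58 and 0.14 (0.62 and 0.32 without HR2835).

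Among ISG15 and its conjugation machinery, USP18, the protease that removes ISG15 and dampens receptor signalling, came second at r = 0.89. It lay between 4.85 and 5.98 in HR and between 4.91 and 6.75 in LR. Its pair with MX1 reached r = 0.91, among the closest of all pairs. ISG15 itself reached 0.86 and UBA7, the activating enzyme, 0.79. TRIM25, a ubiquitin ligase that acts on the sensor RIG-I, stayed at 0.37 (0.28 without HR2835). Its signal was nevertheless well above the median probe set, with values from 7.61 to 8.52.

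Of the enzymes acting on double-stranded RNA, OAS2, a maker of the 2-5A messenger that activates RNase L, followed the rest at r = 0.86. OAS1, of the same family, lay at 0.65 and had the widest range of the members, from 6.05 to 9.40. ADAR, which edits adenosine to inosine, ran with IRF9 at r = 0.92, the highest of all pairs when HR2835 was included. HR2835 was the lowest animal in both genes, and this pair was not examined without it. With the rest ADAR lay at 0.58, and at 0.55 without HR2835. ISG20, an exonuclease, stayed near 0 at 0.09.

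EIF2AK2 (PKR), the kinase that stops translation upon sensing double-stranded RNA, was the clearest case of 1 animal setting a correlation. In HR it lay between 5.04 and 5.39 in 9 animals and at 7.75 in HR2835, with a median of 5.13. LR values ranged from 4.52 to 6.56 with a median of 5.38. Its r with the rest was 0.18 over all animals and 0.74 without HR2835. IFIH1 (MDA5), a sensor of long viral RNA, went from 0.34 to 0.60 by the same step, and IFIT5 from 0.10 to 0.36.

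The other RNA sensors followed the rest. DHX58 (LGP2), a regulator of both RIG-I and MDA5, lay between 5.11 and 6.54 in HR and between 5.63 and 7.16 in LR, with r = 0.79. DDX58, which encodes RIG-I, the sensor of viral RNA ends, lay at 0.72, and at 0.87 without HR2835. In LR alone DDX58 reached 0.89, but in HR alone, HR2835 included, only 0.12. Both of these were highest in LR animals, LR2611 for DHX58 and LR2594 for DDX58.

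IFIT3, a scaffold of the IFIT complex that holds back viral RNA, reached r = 0.85. It ranged from 4.81 to 5.54 in HR and from 3.86 to 6.05 in LR, so that the LR values enclosed those of HR. Its r with the neighbouring IFIT1, which binds the cap of viral RNA, was 0.84. IFIT1 and IFIT2 lay below the median probe set, at means of 4.66 and 3.35. IFIT5 ranged from 6.08 to 7.82 over all animals and lay at 0.10 with the rest. IFIT genes are related in sequence, and cross-hybridization between them was not tested.

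Further effectors were mostly close to the core. IFI44, an antiviral protein, reached r = 0.85, XAF1, a partner of apoptosis inhibitors, 0.84, and CMPK2, a mitochondrial nucleotide kinase, 0.85. IFI44 lay between 5.25 and 6.23 in HR and between 5.15 and 7.22 in LR. IFI6, a mitochondrial and endoplasmic reticulum protein that restrains cell death and viral replication, ranged from 9.44 to 12.26, and its highest value stood in HR2915. XAF1 formed one of the closest pairs with IFIT3 at r = 0.90.

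The transcription factors split. STAT2 and IRF9, the partners in the interferon-induced complex, reached r = 0.68 with the rest each, whereas IRF1 lay at 0.32 and IRF2, a repressor of the same promoters, at 0.14 (0.17 and 0.07 without HR2835). IRF9 ranged from 7.52 to 10.06 in HR and from 8.80 to 10.21 in LR. STAT2 ranged from 7.38 to 8.55 in HR and from 8.02 to 8.60 in LR. For both, the lowest animal was HR2835, and the correlations were 0.76 for STAT2 and 0.71 for IRF9 without it.

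The PARP members and DTX3L differed among themselves. PARP9 and DTX3L encode a heterodimer of an ADP-ribosyltransferase and a ubiquitin ligase, and the genes are adjacent, but they correlated at r = -0.41. Both were dim, with means of 2.23 and 4.68, and lay at 0.16 and 0.04 with the rest (0.12 and 0.26 without HR2835). PARP14, a further ADP-ribosyltransferase, correlated with DTX3L at 0.46 and with the rest at 0.56 (0.67 without HR2835). PARP12, an ADP-ribosyltransferase of stress granules and the Golgi, lay between 6.84 and 8.14 and followed the rest at 0.60.

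Of the presentation genes, B2M, the light chain of class I molecules, lay between 12.44 and 13.18 and followed the rest at r = 0.67. TAP1 and TAP2, the subunits of the peptide transporter, lay at 0.48 and 0.40 with the rest (0.46 and 0.28 without HR2835). Their own pair reached 0.84, and 0.66 without HR2835, in which both were lowest. TRIM21, an antibody receptor of the cytosol, reached 0.63.

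**Figure D3:**
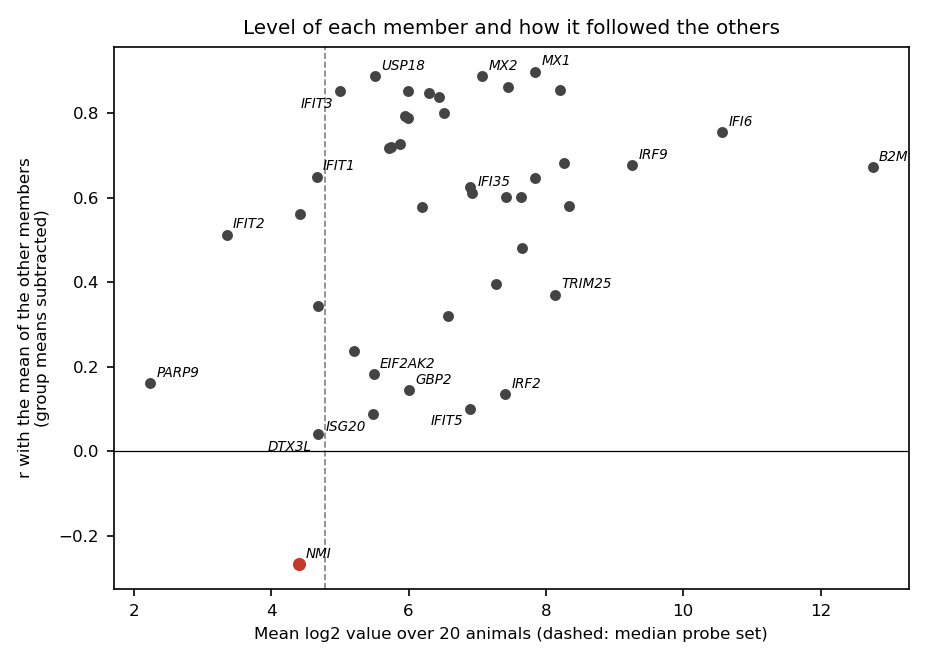
Each point is 1 member: its mean log2 value over 20 animals on the horizontal axis and its r with the mean of the other members, group means subtracted, on the vertical axis, with the median probe set as a dashed line. MX1 lies at the top with 0.90 and DTX3L lowest of the 42 members with 0.04 (0.26 without HR2835), and NMI (red) lies below 0 at -0.27.

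Low signal went along with low correlation between probe sets of the same gene. Of the 42 members 36 lay above the median probe set, and their r with the rest ran from 0.09 (ISG20) to 0.90 (MX1). For the 6 members below it, r with the rest ran from 0.04 (DTX3L) to 0.65 (IFIT1). Among the dimmer probe sets of members with several, the 20 above the median level correlated with the brightest one of their gene at a median r of 0.84. The 19 below it reached a median of 0.30. The part of signal strength in the low correlations of PARP9, DTX3L and NMI was not tested.

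The genomic neighbours among the members formed 14 pairs with no more than 5 genes between them in RefSeq, and their median r was 0.43. RSAD2 and CMPK2, which lie side by side, correlated at 0.56, and OAS1 and OAS2 at 0.39. IFI35, DHX58, TRIM25 and XAF1 lie on chromosome 12, which also carries the coping behavior QTL. Their differences between HR and LR were 0.22, -0.05, 0.03 and -0.05 in this order.

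The module score, the mean of the standardized log2 values of the 42 members, placed single LR animals at the top. LR2611 reached 1.37, with 40 of 42 members above their mean over all animals, and LR2594 reached 0.91 with 35. The next were LR2016 at 0.57 and HR2915 at 0.56. At the other end lay HR2835 at -0.85, LR2793 at -0.77, LR2790 at -0.73 and HR2978 at -0.61. Thus both ends of the score held animals of LR. The mean was 0.04 ± 0.74 (SD, n = 10) in LR and -0.04 ± 0.43 (SD, n = 10) in HR, so that it differed by less than either SD.

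The spread of single members was compared between the groups. The SD was larger in LR for 28 of the 42 members, against 32.0% of all named genes. Without HR2835, which lowered the median HR SD of all named genes from 0.28 to 0.21, it was larger in LR for 38 of 42, against 59.7%. The count was 34, against 60.7%, when LR2611 was left out as well, and 32, against 58.9%, when LR2594 was also left out. Leaving out LR2611 alone gave 22 of 42, against 33.5%. The median SD of the members was 0.34 in HR, 0.26 in HR without HR2835, and 0.48 in LR. These choices of animals were made after seeing the data, the members share the same animals, and no test of the spread was made.

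In the comparison of HR with LR, none of the 42 members passed an adjusted p of 0.05 in limma (smallest adjusted p = 1.0), and neither did any other probe set of the array (0.0%). At an unadjusted p below 0.05 there were 3 members, against 3.65% of all probe sets. IFI35 was higher in HR, against 2.01%, and OAS2 and PARP9 were lower, against 1.64%. Without HR2835 there were 4, against 7.89%, with a smallest adjusted p of 0.606. These were IFI35, higher against 3.92%, and IFIT5, IFIH1 and OAS2, lower against 3.96%. No member had values that did not overlap between the groups, which was likewise true of 0.0% of the named genes.

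OAS2 showed the lowest difference of the members. In HR it ranged from 7.30 to 8.66 with a median of 7.77, and in LR from 7.44 to 9.72 with a median of 8.44. The 4 highest animals were LR2016, LR2594, LR2611 and LR2789, the same that lay among the 5 highest of the module score. Its log2 difference, HR minus LR, was -0.67 with a standard error of 0.27 and an unadjusted p of 0.0226. The other probe sets of OAS2 differed by -0.66 and -0.54. PARP9 differed by -0.21 (unadjusted p = 0.0392) at a mean of only 2.23.

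Over the members the direction was mixed. HR was higher for 16 and lower for 26, against 53.7% lower among all named genes, and the median difference was -0.04, against -0.01. Without HR2835 HR was higher for 25 and lower for 17, against 46.8% lower, and the median became 0.03. The median was likewise above 0 without LR2611 (0.04), without LR2016 (0.01) or without LR2594 (0.01). OAS1 lay at the upper end with 0.37, although its standard error was 0.36.

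**Figure D4:**
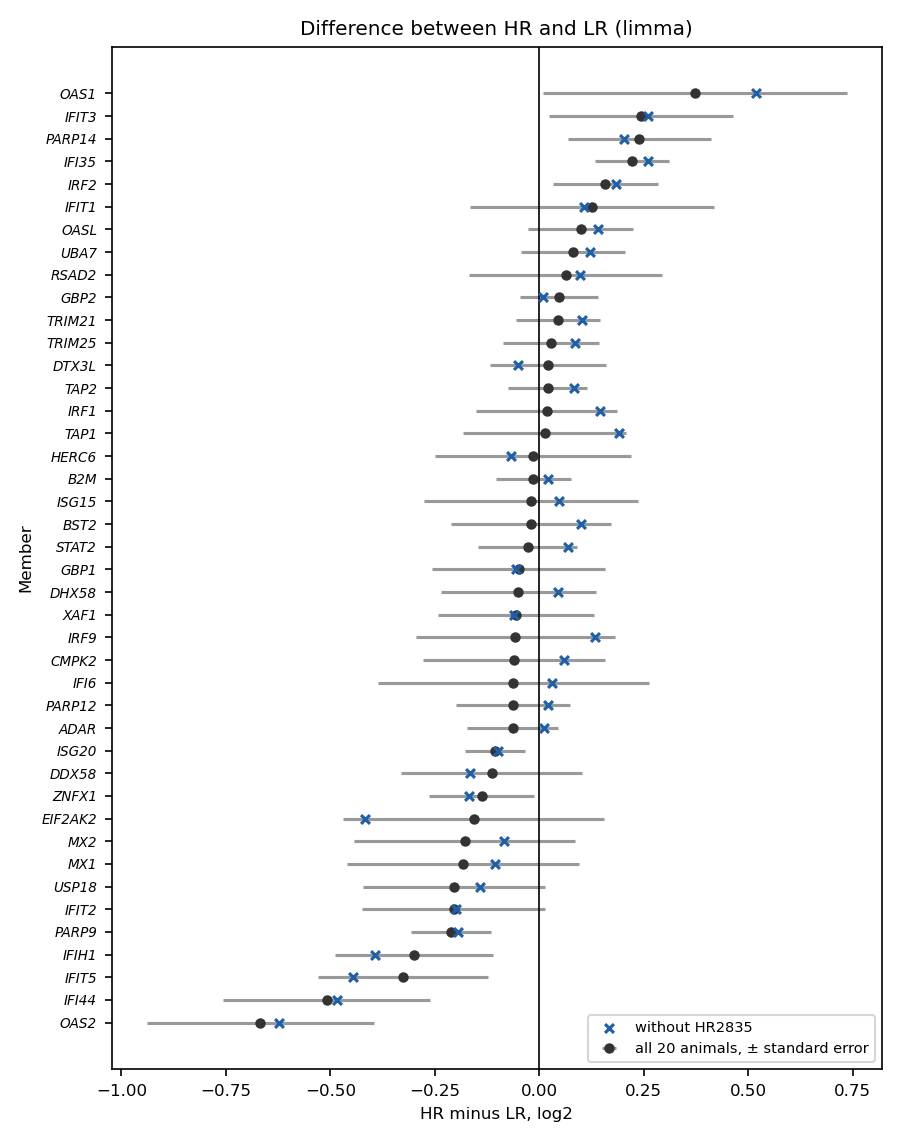
Log2 difference between HR and LR for each of the 42 members, with all 20 animals (black points, bars are the standard error of limma) and without HR2835 (blue crosses). The differences run from -0.67 for OAS2 to 0.37 for OAS1, and none passes adjustment over all probe sets.

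NMI did not follow the module over animals. Within the groups its r with the module score was -0.27 and Spearman's rho -0.33, and r was -0.18 without HR2835. Leaving out both animals farthest from the median of NMI, HR2835 and HR2593, gave -0.16, and leaving out LR2789 gave -0.45. In HR alone r was -0.65, in LR alone -0.06, and the difference between these was not tested. The HR value includes HR2835 and was not taken without it. The dimmer probe set of NMI gave 0.15, so that the sign depended on the probe set. LR2611 held the highest score and the lowest NMI value (3.24), and HR2835 the lowest score and the highest NMI value (6.10).

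Single members were correlated with NMI by a permutation test (two-sided, 100000 permutations within groups), with adjustment over 13587 named genes. None of the 42 passed an adjusted p of 0.05 (smallest 0.0866), against 1.29% of the named genes. At an unadjusted p below 0.05 there were 8 members, all negative, against 24.9% of the named genes in either direction and 14.3% with a negative r. Without HR2835 there were 3 (PARP12, ADAR and TRIM25), against 15.9%. Without HR2857 there were 5, against 18.2%, and without LR2789 there were 15, against 20.2%. Negative correlations numbered 30 of 42, against 58.0%, and 27 without HR2835, against 52.2%, and the median r of -0.16 compared with -0.10 over all named genes.

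The lowest correlations with NMI were those of ADAR, TRIM25 and PARP12. ADAR had r = -0.62 and rho = -0.60 (permutation adjusted p = 0.0877 and 0.158). TRIM25 had r = -0.61 and rho = -0.72 (permutation adjusted p = 0.0866 and 0.110). PARP12 followed at r = -0.59 and rho = -0.59 (permutation adjusted p = 0.0967 and 0.161). Without HR2835 and HR2593 these became -0.51, -0.51 and -0.54. IFI35, which binds NMI as a protein, also ran against it at r = -0.56 and rho = -0.66 (permutation adjusted p = 0.121 and 0.135). Its r was -0.47 without HR2835 and -0.45 without HR2835 and HR2593. In HR alone, HR2835 included, it was -0.82, and in LR alone -0.20.

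At the other end stood EIF2AK2 with r = 0.41, IFIT5 with 0.34 and IFIH1 with 0.33, in each of which HR2835 was the highest HR animal. Their rho values of 0.15, 0.18 and 0.23 were lower, and without HR2835 r was 0.23, 0.19 and 0.20. None passed adjustment (smallest permutation adjusted p = 0.253 for EIF2AK2).

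With group means subtracted, the genes outside the list that followed NMI most closely over animals were IGF1, ESD, SNX3, ALDH1L2 and PON2. IGF1, an insulin-like growth factor, correlated at r = 0.81 and rho = 0.80 (permutation adjusted p = 0.0272 and 0.0906). ESD (esterase D) reached 0.80, SNX3, a sorting nexin, 0.78, ALDH1L2, a mitochondrial folate enzyme, 0.78, and PON2, a paraoxonase, 0.77. The most opposite were CREBBP, a histone acetyltransferase, at -0.87, CDC20, an activator of the anaphase-promoting complex, at -0.84, and EP400, a chromatin remodeler, at -0.82. The HR and LR differences of these 8 genes lay between -0.17 and 0.17.

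The number of such genes depended on the animals. Of the named genes 175 passed an adjusted p of 0.05 with NMI over all animals, 0.42% with a positive and 0.868% with a negative r, and 0 passed without HR2835 (IGF1 then at 0.0776, r = 0.78). The count was also 0 without HR2857, 6 without LR2611, 11 without LR2016 or HR2965, 17 without LR2790, 26 without LR2789, 28 without HR2593, 49 without HR2797 and 60 without HR2897. It was 270 without LR2579, 303 without HR2978, 320 without HR2900, 579 without LR2594 and 617 without LR2562. By Spearman's rho 0 genes passed.

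Other genes of the pathway were read from fixed lists. Of 32 further interferon-stimulated genes that were measured, 11 correlated with the module score above r = 0.5, against 1.65% of the named genes outside the module. Without HR2835 there were 10, against 1.19%. Among them were RTP4 at 0.74, UBE2L6, the conjugating enzyme of ISG15, at 0.74, PML, the organizer of nuclear bodies, at 0.73, LGALS9, a galectin, at 0.71, and CXCL9, a chemokine that attracts T cells, at 0.54. No gene of this list passed the HR and LR test, and at an unadjusted p below 0.05 only NLRC5, a regulator of class I genes, was higher in HR, by 0.31 (p = 0.0124). The median r of the 32 genes was 0.34, and 5 of them had an r below 0, down to -0.33 for DDX60.

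The upstream genes mostly did not follow the module score. Of 12 interferon ligands 3 were measured, IFNE, IFNK and IFNG, with means from 2.20 to 2.58, below the median probe set. Among 15 receptors, Janus kinases and STAT genes, 0 correlated with the module score above 0.5. STAT6 lay just below this line at 0.4996 (0.41 without HR2835), and STAT3, with a mean of 11.01, lay at 0.11. Among 14 genes of the sensing pathway 1 exceeded 0.5, TRAF3, an adaptor of the sensing kinases, at 0.54 (0.46 without HR2835). None of these 3 lists held a gene with an unadjusted HR and LR p below 0.05.

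The score of the sensing list correlated with NMI at r = -0.64, and -0.61 without HR2835. Of its 14 genes 12 had a negative r with NMI, against 58.0% of the named genes, and 1 passed adjustment, against 1.29%. The viral RNA receptor TLR3 lay at 0.34. A negative r of similar size was not particular to this list, since the score of the cortex markers correlated with NMI at -0.57. MAVS, the mitochondrial adaptor of RIG-I and MDA5, correlated with NMI at -0.73 (permutation adjusted p = 0.0422), and STAT5A, a STAT that binds NMI in human cells, at -0.68 (0.0445). Both calls are among the 175 that were lost without HR2835. Of 11 measured genes known to interact with NMI, IFI35 and TRIM21 included, STAT5A was the only one to pass, against 1.29% of the named genes.

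Markers of the cell types that an adrenal gland holds were read beside the module score. Of 30 measured leukocyte markers 24 lay above the median probe set, and 0 correlated with the module score above 0.5. Their score, the mean of their standardized values, ran from -1.39 to 0.71 in HR and from -1.06 to 0.21 in LR. It correlated with the module score at r = 0.50, and 0.39 without HR2835. In LR2611 and LR2594, the animals with the highest module scores, the leukocyte score was -0.06 and 0.08, inside the range of the others. With the leukocyte score removed from each gene the median pair r of the members was 0.34. The common leukocyte antigen PTPRC had a mean of 4.54, and 2 of the 30, CD2 and LCP1, were higher in HR at an unadjusted p below 0.05, by 0.41 and 0.45, against 2.01% of all probe sets. The part of leukocytes in the module was not tested.

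Endothelial markers (14 genes) correlated with the module score at r = 0.18, and -0.15 without HR2835. For the cortex (8 genes) r was 0.16 and -0.14, for the medulla (9 genes) -0.21 and -0.33, and for red blood cells (6 genes) -0.33 and -0.52. Of the 6 red blood cell genes 2, ALAS2 and AHSP, were higher in HR at an unadjusted p below 0.05, by 0.41 and 0.29, likewise against 2.01%. LR2594 was lowest of all LR animals in the scores of medulla (-1.67) and red blood cells (-1.50). HR2835 was the lowest HR animal in the scores of all these cell types and of leukocytes. Its values were -1.39 for leukocytes, -1.81 for endothelium, -2.34 for cortex, -0.74 for medulla and -0.85 for red blood cells. In leukocytes, endothelium and cortex the lowest LR values were -1.06, -0.36 and -0.52. NMI correlated with the cortex score at -0.57, with and without HR2835. The part of tissue composition in these values was not tested.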

How the data were processed

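Adrenal gland RNA of 20 pigs (10 HR, 10 LR) was measured with 1 array per animal. Groups follow the animal names in the labels. The authors used GCOS 1.1.1 for the scans and RMA in Affymetrix Expression Console, and the deposited log2 values, from 0.37 to 14.34, were taken without further scaling. The detection filter of the methods needs probe intensities and was not applied. Of 47845 rows, 123 controls were left out. Batch, litter and sex are not given in the sources used here.

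A gene was read from its brightest probe set by mean. HR and LR were compared with limma 3.58.1 in R 4.3.3 (lmFit, eBayes, no covariate, Benjamini-Hochberg over 47722 probe sets, threshold 0.05), after the scripts were tested on simulated data. Correlations used Python 3.11.15, numpy 2.4.6 and pandas 2.3.3, with group means subtracted. Their permutation test shuffled NMI within groups, with adjustment over named genes. Genomic neighbours come from RefSeq genes on Sscrofa11.1, where all 43 genes matched.

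The members and all gene lists were chosen with earlier results of these data known. Named were NMI, IFI35, in each role group the member with the highest mean and the one with the highest correlation with the rest, members with an unadjusted p below 0.05, the 3 members with the highest and the 3 with the lowest correlation with NMI, the 5 most similar and 3 most opposite other genes, and in each list the leading ones. Further genes were chosen after their values were seen. Alternatives were other normalizations, probe set rules, filters, covariates, variance models and correlation measures, and each animal left out. Columns of samples not used numbered 0.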

Additional observations from a re-analysis of the deposited data

Results flagged for a closer look

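In 90 groups of values (each member, both probe sets of NMI and the module score, in HR and in LR), 10 held an animal that stood apart from the other 9 by Dixon's test at 95%, and about 1 in 20 groups is found by chance. HR2835 accounted for 8 of them. It lay above the other HR animals for EIF2AK2 (7.75, next 5.39) and IFIH1 (5.37, next 4.69). It lay below them for STAT2 (7.38, next 8.10), IRF1 (5.43, next 6.47), IRF9 (7.52, next 8.88), ADAR (7.62, next 8.17), TAP1 (6.07, next 7.41) and TAP2 (6.70, next 7.15). LR2789 stood above the other LR animals for NMI (5.58, next 4.18), and its module score was 0.43. LR2611 stood above them for TRIM21 (7.35, next 6.99).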

How the results depend on the processing

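The absence of members passing the HR and LR test, and of members passing with NMI, held under all alternatives that were run. Leaving out each animal in turn, the members at an unadjusted HR and LR p numbered 2 to 4, their median difference ran from -0.09 to 0.04, the median pair r from 0.32 to 0.40, and the r of NMI with the module score from -0.45 to -0.18. The members with a larger SD in LR numbered 38 without HR2835 and 22 without LR2611, and no other single animal was left out there. The r of NMI with the module score was -0.65 in HR alone, over 10 animals with HR2835 included. It was 0.15, turned in sign, with the dimmer probe set of NMI, and the cause was not tested. The members at an unadjusted p with NMI numbered 8, and 4 with the leukocyte score removed (against 17.0% of the named genes), 2 with the dimmer probe set (4.84%), 10 in HR alone (17.4%) and 0 in LR alone (6.6%). Named genes passing with NMI numbered 175, but 0 with arrays centred on their median or by Spearman's rho. They numbered 3 with the mean of all probe sets, 11 with the leukocyte score removed and 329 after quantile normalization. In limma's regression on NMI, 1 of 47722 probe sets passed, with NMI's own probe set among those tested. A probe set regressed on itself passes by construction, so this count does not show that another gene passed. The median HR and LR difference was -0.12 with the leukocyte score as a covariate and 0.02 with array weights. No paired analysis was made, since HR and LR are different animals and the labels name no pairs. The values carry no detection call, so that the lowest signals (NMI's dimmer probe set, PARP9, the ligands) cannot be told from background.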
